A study of Mus musculus with 4 samples.

Results

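The keratin genes of the epidermis outside the hair follicle were examined in dorsal skin from the imiquimod (IMQ) model of psoriasis-like dermatitis. They were 10 genes, found by symbol among the 24346 genes of each file, with 3 keratins of the basal layer (*Krt5*, *Krt14* and *Krt15*) and 7 of the suprabasal layers (*Krt1*, *Krt10*, *Krt2*, *Krt77*, *Krt78*, *Krt79* and *Krt80*). All 10 passed the filter on low values, a mean of at least 0.1 FPKM over the 4 libraries, as did 15896 genes in all. C57BL/6 mice began the diet at 8 weeks of age and received for 3 weeks either a NASH diet, which is high in fat and cholesterol and contains bile salt (Cont-IMQ), or the same diet with 7-ketocholesterol (7KC), an oxidized form of cholesterol (7KC-IMQ). Every mouse then received cream with 5% IMQ, a ligand of Toll-like receptor 7, for 1 day, so the samples shared the fatty diet and the IMQ and differed in the 7KC. Skin without IMQ and skin from mice on a normal diet are not part of this comparison. RNA sequencing gave 2 libraries in each group, replicates 1 and 2, with values in FPKM (fragment counts scaled to transcript length and to the mapped fragments of the library). The labels do not tell whether a library was made from a single mouse, and p-values therefore measure only the spread between these samples, which may be technical.

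Keratins form the intermediate filaments of epithelial cells, and each filament is built from pairs of an acidic type I and a basic type II protein. Basal keratinocytes, which divide and are held to the basement membrane by hemidesmosomes, make *Krt5* with *Krt14*, and cells that leave the basal layer replace this pair by *Krt1* with *Krt10*. In wounds and in psoriatic plaques, keratinocytes also make the stress keratins *Krt6a*, *Krt6b*, *Krt16* and *Krt17*. The 3 type I genes studied here (*Krt10*, *Krt14* and *Krt15*) lie on chromosome 11, and the 7 type II genes lie on chromosome 15, all on the minus strand of GRCm38.

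Keratin genes arose by duplication, and neighbors can still share coding sequence. A 75-base read from such a stretch cannot be assigned to one of the genes, and the stretch that bears on *Krt14* is shown here for this reason. Of the 75-base windows in the annotated transcripts (GENCODE release M21, GRCm38), 5.71% of those of *Krt14* also occur in *Krt16*. For *Krt5* the share was 5.18%, mostly with *Krt6a*, and for the other 8 keratins it was 0. The longest run that *Krt14* shares with *Krt16* is 134 bases in the coding part of exon 1 of both genes, at chr11:100207017-100207150 in *Krt14* and chr11:100248476-100248609 in *Krt16*. It is printed with 15 bases on either side, and capitals mark the bases that differ.
Krt14: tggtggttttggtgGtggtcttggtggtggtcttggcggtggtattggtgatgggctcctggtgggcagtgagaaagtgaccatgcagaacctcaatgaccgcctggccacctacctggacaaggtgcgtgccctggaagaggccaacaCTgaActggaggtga
Krt16: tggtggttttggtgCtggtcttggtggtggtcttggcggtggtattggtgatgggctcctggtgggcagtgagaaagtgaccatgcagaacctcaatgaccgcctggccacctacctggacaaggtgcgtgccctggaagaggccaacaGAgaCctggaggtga

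Sequence just before the transcription start is shown for *Krt10*, *Krt78*, *Krt5* and *Krt2*. In these, Cont-IMQ replicate 1 was the highest library and Cont-IMQ replicate 2 the lowest. Sequence is also shown for 2 keratins without this order (*Krt77* and *Krt79*). RefSeq promoters (GRCm38.p6) were matched for 7 of the 10 keratins, and 6 of these began within 7 bases of the GENCODE start. The 60 bases before the start are printed, and capitals mark 3 TATA-like motifs where they occur on the strand of the gene in the last 40 bases. The first motif was TATAAA and is found in 2.31% of all promoters of that length. The second motif was TATATA (1.14%), which can overlap the first, as it does before *Krt10*. The third motif searched was GATAAAA (0.265%).
Krt10, chr11:99389365-99389424, minus strand: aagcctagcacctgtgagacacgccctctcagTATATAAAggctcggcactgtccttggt
Krt78, chr15:101954288-101954347, minus strand: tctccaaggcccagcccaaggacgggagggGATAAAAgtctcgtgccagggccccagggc
Krt5, chr15:101712906-101712965, minus strand: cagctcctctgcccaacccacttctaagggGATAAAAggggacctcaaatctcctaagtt
Krt2, chr15:101818170-101818229, minus strand: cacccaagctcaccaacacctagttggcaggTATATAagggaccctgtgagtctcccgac
Krt77, chr15:101869706-101869765, minus strand: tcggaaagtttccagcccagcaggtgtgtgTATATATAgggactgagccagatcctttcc
Krt79, chr15:101940325-101940384, minus strand: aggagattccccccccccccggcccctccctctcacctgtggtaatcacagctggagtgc

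These letters, chosen after the sequences had been read, occur in 5 of the 6 keratin promoters and in 3.47% of the 32851 RefSeq promoters of the same length. They stand before genes with and without that order of the libraries, and a match of letters is a description only. No match before *Krt79* says only that the letters are absent from this window.

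The depth of the libraries was estimated from the steps of low FPKM values and lay between 15080000 and 16340000 reads, so that counting error is small for 9 of the 10 keratins and large for *Krt2*. The summed FPKM of all genes lay between 630272 and 702218. The Cont-IMQ libraries differed from each other in hair follicle transcripts. Keratins of the inner root sheath and companion layer (9 genes) summed to 114 FPKM in Cont-IMQ replicate 1 and to 1423 FPKM in Cont-IMQ replicate 2, with 425 and 375 FPKM in 7KC-IMQ replicates 1 and 2. Results for the keratins are therefore also given without single libraries. In whole skin, fewer cells of a type and less RNA per cell cannot be told apart.

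All keratins but *Krt2* were abundant, and those of the basal and the suprabasal pairs were among the highest transcripts of the skin. By mean FPKM over the 4 libraries, *Krt10* ranked 3 among all genes, *Krt14* 5, *Krt1* 7 and *Krt5* 23. FPKM is scaled to transcript length, and levels can therefore be compared between genes. The ranges of *Krt10*, *Krt14* and *Krt1* overlapped, so their order is within the spread. *Krt5* followed, with its highest library (3062 FPKM) below the lowest library of *Krt1* (3191 FPKM). *Krt77* and *Krt79* came next with overlapping ranges, then *Krt80* and *Krt15*, also overlapping, and then *Krt78*. The 10 keratins together took 3.78% and 2.71% of the summed FPKM in the Cont-IMQ libraries, against 2.96% and 2.95% with 7KC.

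**Figure D1:**
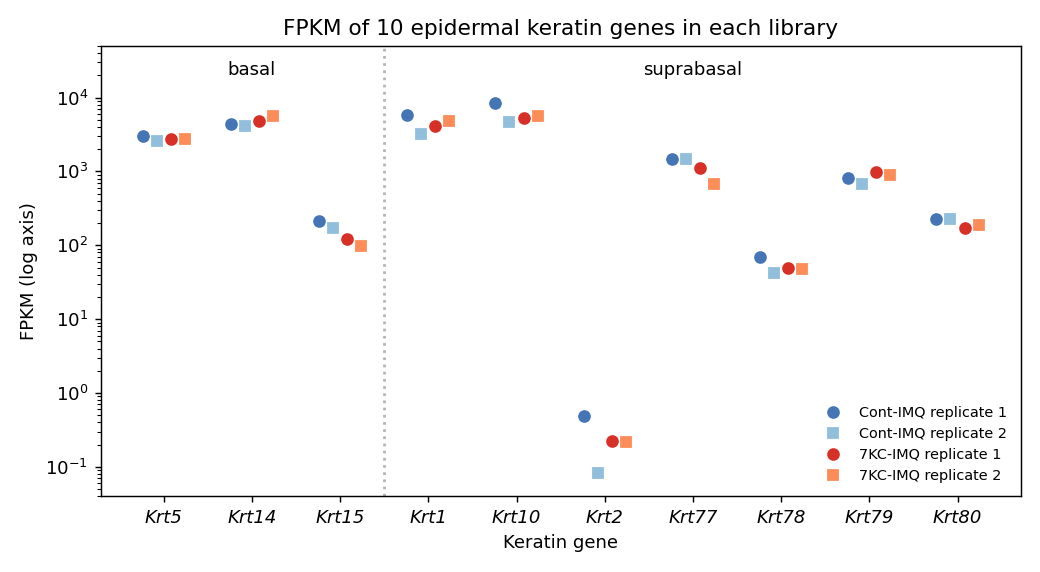
FPKM (log axis) of each keratin gene in the 4 libraries, with blue for Cont-IMQ and red or orange for 7KC-IMQ, circles for replicate 1 and squares for replicate 2. *Krt15*, *Krt77* and *Krt80* were lower in both 7KC-IMQ libraries than in either Cont-IMQ library, *Krt14* and *Krt79* were higher, and *Krt2* stayed below 1 FPKM.

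Whether the diet with 7KC changed the keratins of IMQ-treated skin was asked by comparing the 7KC-IMQ group with the Cont-IMQ group. None of the 10 keratins passed the threshold (limma on log2(FPKM + 1), Benjamini-Hochberg adjusted p under 0.05 over 15896 genes), and 1 gene of all those tested did (0.00629%). At an unadjusted p under 0.05, 3 of the 10 were lower (*Krt15*, *Krt77* and *Krt80*) and 0 were higher, where 5.47% of all genes were lower and 7.50% higher. The groups did not overlap for 5 keratins, 3 lower and 2 higher (*Krt14* and *Krt79*), against 46.8% of all genes (22.9% lower and 23.9% higher), so this share is near the background. The median log2 difference of the 10 keratins was -0.091, and that of all genes tested was -0.0056. The sign of the keratin median turned with the controls, at 0.20 without Cont-IMQ replicate 1 and -0.38 without Cont-IMQ replicate 2. With 2 libraries a group, the smallest p of an exact two-sided permutation test is 0.333. Differences are given below on the log2(FPKM + 1) scale as 7KC-IMQ minus Cont-IMQ, with the standard error (SE).

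**Figure D2:**
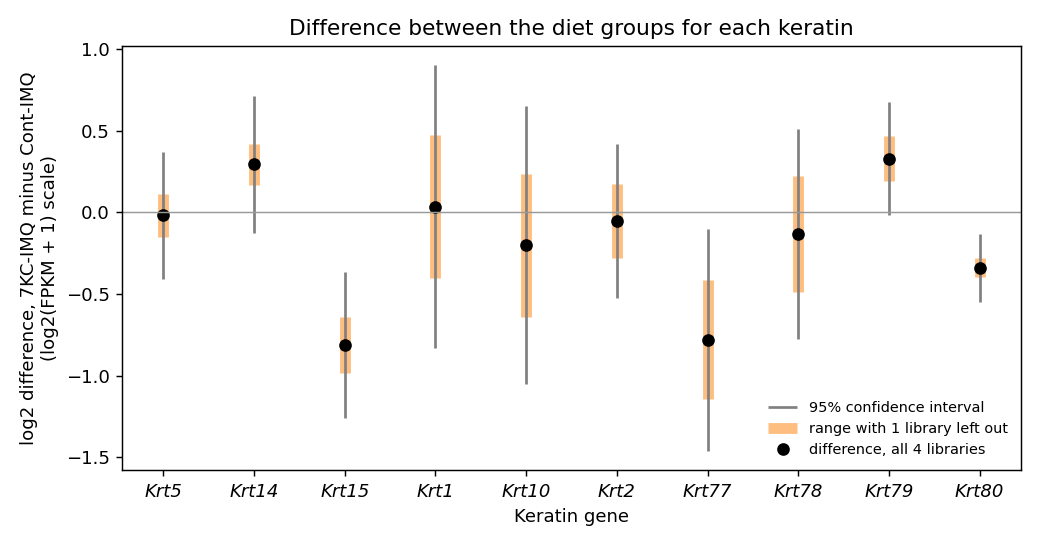
Log2 difference between the groups (7KC-IMQ minus Cont-IMQ, log2(FPKM + 1) scale) for each keratin, with the 95% confidence interval from limma as a gray line and the range with 1 library left out as an orange bar. The intervals of *Krt15*, *Krt77* and *Krt80* lie below 0 before adjustment, and the orange bars of *Krt5*, *Krt1*, *Krt10*, *Krt2* and *Krt78* cross 0.

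Among the basal keratins, *Krt14* was higher and *Krt15* lower in both 7KC-IMQ libraries, and *Krt5* lay within the control range. *Krt5* (chr15:101707070-101712898), the type II basal keratin, had 3062 and 2544 FPKM in Cont-IMQ and 2783 and 2729.6 FPKM in 7KC-IMQ. The 7KC-IMQ values thus fell between the controls. Its mean was 2803 ± 367 FPKM in Cont-IMQ and 2756 ± 37.6 FPKM in 7KC-IMQ (SD, n = 2 each), a log2 difference of -0.018 (SE 0.15, 95% interval -0.40 to 0.37, limma adjusted p = 0.973).

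*Krt14* (chr11:100203162-100207548), the type I partner of *Krt5*, had 4409 and 4132 FPKM in Cont-IMQ and 4807 and 5699.9 FPKM in 7KC-IMQ. Both 7KC-IMQ libraries were above both controls, and replicate 2 was the highest. The mean was 4270.4 ± 196 FPKM in Cont-IMQ and 5253 ± 631 FPKM in 7KC-IMQ (SD, n = 2 each), 23.0% higher. On the log2 scale the difference was 0.29 (SE 0.16, limma adjusted p = 0.506), and 0.17 without 7KC-IMQ replicate 2. Since *Krt16* was also higher in 7KC-IMQ (mean 1246 FPKM in Cont-IMQ and 2701 FPKM in 7KC-IMQ), the shared run printed above bears on this value. With reads spread evenly along the transcript, the *Krt16* reads in shared windows would amount to 71.1 FPKM in Cont-IMQ and 154 FPKM in 7KC-IMQ. That difference, 83.1 FPKM, compares with 983 FPKM for *Krt14* itself. Windows were matched exactly, so reads mapped with mismatches are not covered and 83.1 FPKM is not an upper limit. The part of *Krt16* reads in the *Krt14* values was not tested.

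*Krt15* (chr11:100131758-100135928), a type I keratin of basal cells and of stem cells in the follicle bulge, had 216 and 172 FPKM in Cont-IMQ and 123 and 96.9 FPKM in 7KC-IMQ. Every 7KC-IMQ value was below every control, and the groups were farther apart than the libraries within either group. The mean was 194 ± 31.1 FPKM in Cont-IMQ and 110.0 ± 18.5 FPKM in 7KC-IMQ (SD, n = 2 each), a ratio of 0.567. This was the largest log2 difference of the 10 keratins, -0.81 (SE 0.17, 95% interval -1.26 to -0.37), and the limma adjusted p was 0.352. With 1 library left out, the difference lay between -0.98 and -0.64.

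Since *Krt15* marks both the basal layer and the bulge, genes of either place were read beside it. *Lgr5*, a receptor of follicle stem cells, had 3.41 and 3.25 FPKM in Cont-IMQ and 3.22 and 2.11 FPKM in 7KC-IMQ. It was thus lower without overlap, as were 22.9% of all genes. *Cd34*, a surface marker of bulge cells, had 96.1 and 88.4 FPKM in Cont-IMQ and 89.4 and 70.0 FPKM in 7KC-IMQ. *Sox9* had 8.46 and 10.1 FPKM in Cont-IMQ and 9.78 and 8.65 FPKM in 7KC-IMQ. For *Lhx2* the values were 12.3 and 19.6 FPKM in Cont-IMQ and 18.9 and 17.5 FPKM in 7KC-IMQ. The ranges of *Cd34*, *Sox9* and *Lhx2* overlapped. None of these markers had an unadjusted p under 0.05 in limma, against 13.0% of all genes. The follicle stem cell list also held *Tcf3* and *Tcf4*. In the mouse these symbols name other genes than the bulge factors called TCF3 and TCF4, so counts and a median over the list are not given. Among 12 genes of hemidesmosomes and basement membrane attachment, 4 were lower and 0 higher at an unadjusted p under 0.05 (all genes: 5.47% and 7.50%). Their median was -0.043 (-0.087 to -0.012 with 1 library left out). *Lamb3*, a chain of the main epidermal laminin, had 23.2 and 25.2 FPKM in Cont-IMQ and 17.0 and 16.3 FPKM in 7KC-IMQ. *Col17a1*, the transmembrane collagen of hemidesmosomes, had 226 and 212 FPKM in Cont-IMQ and 180 and 168 FPKM in 7KC-IMQ. Their adjusted p in limma did not pass the threshold, and the part of these cell markers in the *Krt15* values was not tested.

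The major suprabasal pair varied more between the control libraries than between the groups. *Krt10* (chr11:99385254-99389364), the type I keratin of spinous cells, had 8444 and 4597 FPKM in Cont-IMQ and 5283 and 5553 FPKM in 7KC-IMQ. Its type II partner *Krt1* (chr15:101845426-101850794) had 5867 and 3191 FPKM in Cont-IMQ and 4057 and 4845 FPKM in 7KC-IMQ. For both genes Cont-IMQ replicate 1 was the highest and Cont-IMQ replicate 2 the lowest library, 1.84 times apart. The log2 difference was -0.20 for *Krt10* (SE 0.32, 95% interval -1.05 to 0.65, limma adjusted p = 0.821). For *Krt1* it was 0.035 (SE 0.33, 95% interval -0.83 to 0.90, limma adjusted p = 0.977). Intervals of this width do not show that the groups were alike. Without Cont-IMQ replicate 1 the difference of *Krt10* was 0.24, and without Cont-IMQ replicate 2 it was -0.64. For *Krt1* the same values were 0.47 and -0.40.

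In all, 5 of the 10 keratins had this order of the controls, with the 7KC-IMQ libraries between, namely *Krt1*, *Krt10*, *Krt78*, *Krt5* and *Krt2*. Cont-IMQ replicate 1 was highest and Cont-IMQ replicate 2 lowest in each. The share of all genes with this order was not counted, so these 5 are a description only. The order of *Krt2* rests on few reads, as given below. *Krt78* (chr15:101946001-101954287), a type II keratin of differentiated keratinocytes, had 68.7 and 41.5 FPKM in Cont-IMQ and 49.3 and 48.1 FPKM in 7KC-IMQ. This corresponded to an estimated 2044 to 3404 reads, so that counting error is small beside the gap between the controls. The log2 difference of *Krt78* was -0.13 (SE 0.24, limma adjusted p = 0.851), and 0.23 without Cont-IMQ replicate 1.

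*Krt2* (chr15:101810689-101818169), a type II keratin of the upper epidermis at body sites such as the ear and the tail, was near the limit of detection. It had 0.485 and 0.0816 FPKM in Cont-IMQ and 0.227 and 0.219 FPKM in 7KC-IMQ. By the estimated depths these are 18, 3, 9 and 8 reads, the second of which is at the floor of 3 reads, and no difference was detectable at this depth. *Krt2* ranked 14891 among all genes, while *Krt10* and *Krt1*, in the same layers, ranked 3 and 7.

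The order of the libraries for *Krt10* (Cont-IMQ replicate 1, 7KC-IMQ replicate 2, 7KC-IMQ replicate 1, Cont-IMQ replicate 2) was the reverse of that for the summed inner root sheath keratins given above. Hair shaft keratins (15 genes) summed to 13.7 and 166 FPKM in Cont-IMQ and to 47.7 and 44.1 FPKM in 7KC-IMQ. Markers of the growing follicle (8 genes) summed to 40.7 and 238 FPKM in Cont-IMQ and to 85.7 and 79.6 FPKM in 7KC-IMQ, so that in each of these sums the highest library was the one lowest in *Krt10*. Of the 9 inner root sheath and the 8 growing follicle genes, 0 passed an unadjusted p under 0.05, against 13.0% of all genes. Their median differences were -0.11 and -0.13. These medians were -1.78 and -0.98 without Cont-IMQ replicate 1 and 1.49 and 0.78 without Cont-IMQ replicate 2, so that a single control library set their sign. The part of the follicle in the *Krt1* and *Krt10* values was not tested.

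**Figure D3:**
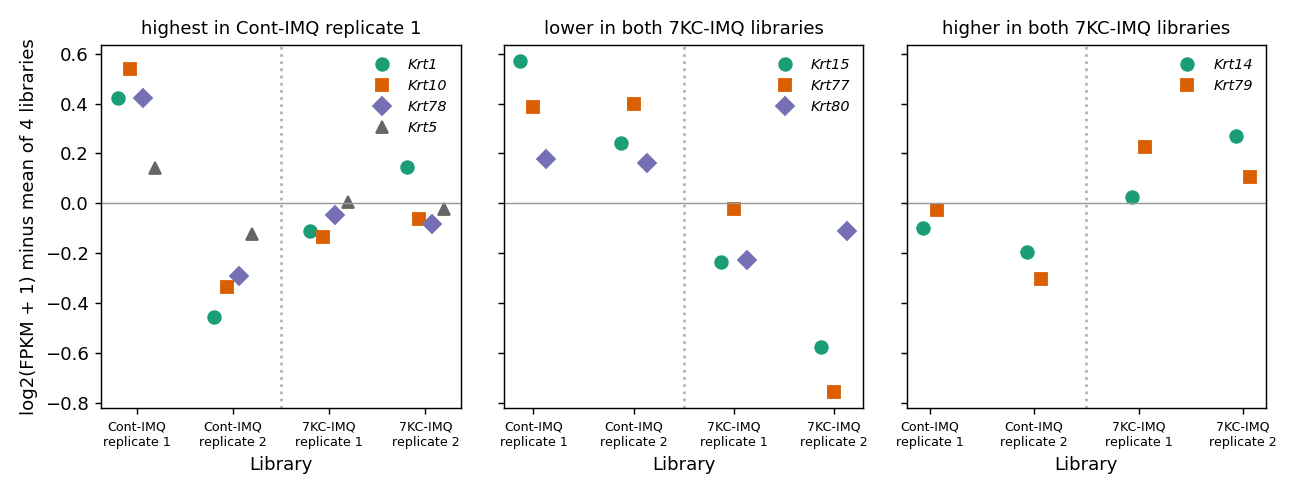
Log2(FPKM + 1) of 9 keratins minus the mean over the 4 libraries of each gene, by library, in 3 panels that group genes of like pattern, with points set slightly apart for legibility. *Krt1*, *Krt10*, *Krt78* and *Krt5* differ most between the Cont-IMQ replicates, *Krt15*, *Krt77* and *Krt80* are above 0 in Cont-IMQ and below 0 in 7KC-IMQ, and *Krt14* and *Krt79* are the opposite.

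The genes nearest to *Krt10* in pattern, among 7098 genes with a mean of at least 10 FPKM, were *Kprp*, *Gpsm1*, *Hal*, *Perm1* and *Acer1*. Nearness was the distance between centred log2(FPKM + 1) values over the 4 libraries, which was 0.11 for *Kprp* and 0.15 for *Acer1*. *Kprp* encodes a keratinocyte proline-rich protein and had 255 and 141 FPKM in Cont-IMQ and 176 and 176 FPKM in 7KC-IMQ. Its gap between the controls follows from the choice of genes by nearness to *Krt10*. For *Krt14* the nearest genes were *Txn2*, *Ippk*, *Polr2f*, *Eif2b4* and *Hfe2*, at distances of 0.031 to 0.046. *Txn2*, the mitochondrial thioredoxin, had 123 and 118 FPKM in Cont-IMQ and 134 and 159 FPKM in 7KC-IMQ. With 4 libraries many genes lie close to any pattern, and no p is attached to these lists.

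Of the minor suprabasal keratins, *Krt77* and *Krt80* were lower and *Krt79* higher in both 7KC-IMQ libraries. *Krt77* (chr15:101858731-101869705), a type II keratin closely related to *Krt1*, had 1475 and 1488 FPKM in Cont-IMQ and 1111 and 669 FPKM in 7KC-IMQ. The controls were nearly equal and the 7KC-IMQ libraries 1.66 times apart. Its mean was 1481 ± 9.13 FPKM in Cont-IMQ and 889.6 ± 313 FPKM in 7KC-IMQ (SD, n = 2 each). The log2 difference was -0.78 (SE 0.26, 95% interval -1.46 to -0.099, limma adjusted p = 0.365). It was -0.42 without 7KC-IMQ replicate 2 and -1.15 without 7KC-IMQ replicate 1. *Krt77* thus did not follow *Krt1* and *Krt10*, for which the controls were the libraries farthest apart.

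*Krt80* (chr15:101347444-101370162), a type II keratin found in many epithelia at later stages of differentiation, had 228 and 225 FPKM in Cont-IMQ and 172 and 186 FPKM in 7KC-IMQ. The gap between the groups was wider than the spread within either. The mean was 226 ± 2.11 FPKM in Cont-IMQ and 179 ± 10.02 FPKM in 7KC-IMQ (SD, n = 2 each). The log2 difference was -0.34 (SE 0.079, 95% interval -0.55 to -0.13, limma adjusted p = 0.356), and -0.40 to -0.28 with 1 library left out.

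*Krt79* (chr15:101929332-101940324), a type II keratin of the upper follicle and the sebaceous duct as well as of the epidermis, had 827 and 683 FPKM in Cont-IMQ and 986 and 906 FPKM in 7KC-IMQ. Both 7KC-IMQ values were above both controls. The mean was 755 ± 101 FPKM in Cont-IMQ and 946 ± 56.2 FPKM in 7KC-IMQ (SD, n = 2 each), 25.3% higher, a log2 difference of 0.33 (SE 0.13, 95% interval -0.018 to 0.68, limma adjusted p = 0.400). Without Cont-IMQ replicate 2 it was 0.19.

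Since *Krt79* is also made in the upper follicle and the sebaceous duct, markers of the upper follicle and of the sebaceous gland were read beside it. Of 6 upper follicle markers, 3 were higher and 2 lower without overlap (all genes: 23.9% and 22.9%), with a median difference of 0.10. The list summed to 3077 and 2433 FPKM in Cont-IMQ and to 3484 and 3201 FPKM in 7KC-IMQ, of which *Defb6*, a beta-defensin, made up 2588 and 1965 FPKM in Cont-IMQ and 2929 and 2639 FPKM in 7KC-IMQ. *Plet1*, a surface marker of the isthmus, had 68.1 and 78.9 FPKM in Cont-IMQ and 119 and 127 FPKM in 7KC-IMQ, a log2 difference of 0.73 (limma adjusted p = 0.331). The 2 lower markers were *Lrig1*, with 24.6 and 26.9 FPKM in Cont-IMQ and 21.7 and 22.6 FPKM in 7KC-IMQ, and *Lgr6*. *Lgr6* had 6.35 and 5.67 FPKM in Cont-IMQ and 5.01 and 5.11 FPKM in 7KC-IMQ. Of 8 sebaceous gland markers, 6 were higher and 2 lower without overlap, against the same shares of all genes, and the median difference was 0.31, or 0.13 without Cont-IMQ replicate 2. The sebaceous list summed to 581 and 458 FPKM in Cont-IMQ and to 676 and 676 FPKM in 7KC-IMQ. *Elovl3*, a fatty acid elongase of sebocytes, had 128 and 110.4 FPKM in Cont-IMQ and 174 and 175 FPKM in 7KC-IMQ, while *Mc5r*, a melanocortin receptor of the gland, had 2.86 and 2.62 FPKM in Cont-IMQ and 1.34 and 1.38 FPKM in 7KC-IMQ. No marker on either list was at 0 in any library. The part of these cells in the *Krt79* values was not tested.

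Ratios of keratins within a library do not depend on the scaling between libraries. The FPKM ratio of *Krt5* to its partner *Krt14* was 0.695 and 0.616 in Cont-IMQ and 0.579 and 0.479 in 7KC-IMQ. Both controls were higher, and the difference in mean log2 ratio was -0.31. For *Krt1* to its partner *Krt10* the ratio was 0.695 and 0.694 in Cont-IMQ and 0.768 and 0.873 in 7KC-IMQ. The controls had almost the same *Krt1* to *Krt10* ratio although either gene differed 1.84-fold between them, and the mean log2 ratio was 0.24 higher in 7KC-IMQ. Both ratios were thus separated between the groups without overlap, and no test was applied to them. With 2 libraries against 2, groups do not overlap in 33.3% of cases by chance alone. Of all genes, 46.8% did not overlap. The same limit holds for the ratios below. Without 7KC-IMQ replicate 2, the library farthest from the controls in each, the differences were -0.18 and 0.15.

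The ratio of *Krt15* to *Krt14*, basal type I genes with no 75-base window in common, was 0.0490 and 0.0416 in Cont-IMQ and 0.0256 and 0.0170 in 7KC-IMQ. The difference in log2 ratio was -1.11, and -0.82 without 7KC-IMQ replicate 2. Across the layers, *Krt10* to *Krt14* was 1.92 and 1.11 in Cont-IMQ and 1.10 and 0.974 in 7KC-IMQ, and *Krt1* to *Krt5* was 1.92 and 1.25 in Cont-IMQ and 1.46 and 1.78 in 7KC-IMQ. Cont-IMQ replicate 2 was close to 7KC-IMQ replicate 1 in the first of these, whose log2 difference of -0.50 was -0.10 without Cont-IMQ replicate 1, and the groups overlapped in the second.

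**Figure D4:**
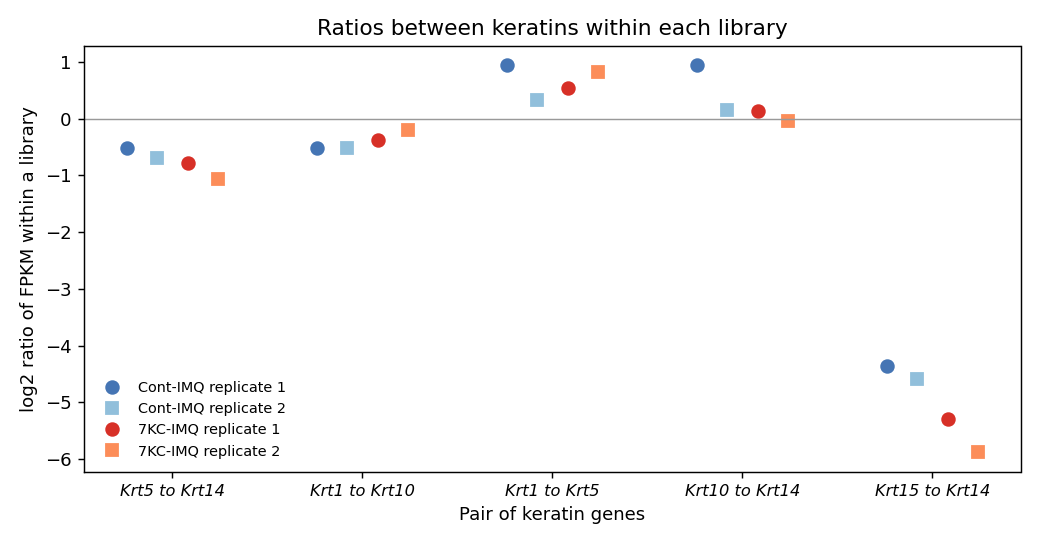
Log2 ratio of FPKM between pairs of keratins within each library, with blue for Cont-IMQ and red or orange for 7KC-IMQ, circles for replicate 1 and squares for replicate 2. *Krt15* to *Krt14* shows the widest gap between the groups (difference in log2 ratio of -1.11), and *Krt1* to *Krt5* overlaps.

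By layer, the basal keratins summed to 7687 and 6847 FPKM in Cont-IMQ and to 7713 and 8526 FPKM in 7KC-IMQ, a difference in means of 852 FPKM. This was 433 FPKM without Cont-IMQ replicate 2, 446 FPKM without 7KC-IMQ replicate 2 and 413 FPKM after rescaling the libraries to the same sum. The suprabasal keratins summed to 16909 and 10225 FPKM in Cont-IMQ and to 11658 and 12208 FPKM in 7KC-IMQ. Their control SD of 4726 FPKM exceeded the difference in means of -1634 FPKM, which was 1708 FPKM without Cont-IMQ replicate 1 and -4976 FPKM without Cont-IMQ replicate 2. The ratio of suprabasal to basal sums was 2.20 and 1.49 in Cont-IMQ and 1.51 and 1.43 in 7KC-IMQ, so that Cont-IMQ replicate 1 alone stood above the others.

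Other keratin families gave different values in the same libraries. The stress keratins, listed with earlier results of these data known and so not independent evidence of their direction, were higher without overlap in 4 of 4 genes, against 23.9% of all genes. Their median log2 difference was 1.14 (0.70 without 7KC-IMQ replicate 2 and 1.57 without 7KC-IMQ replicate 1). In limma 0 of 4 passed the adjusted threshold and 4 had an unadjusted p under 0.05, against 13.0% of all genes. Of the keratins of simple and mucosal epithelia, 7 were tested. Without overlap 5 were lower and 1 higher, against 22.9% and 23.9% of all genes. Their median was -0.29 (-0.80 with a pseudocount of 0.1 and -0.13 without Cont-IMQ replicate 2). *Krt23* was the highest of them, with 179 and 164 FPKM in Cont-IMQ and 136 and 117 FPKM in 7KC-IMQ, and the other 6 lay at or below 1.62 FPKM in every library. Among 15 hair shaft keratins, 1 was higher and 1 lower without overlap, against 23.9% and 22.9% of all genes. Their median was -0.50, which was -1.73 without Cont-IMQ replicate 1 and 0.52 without Cont-IMQ replicate 2.

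**Figure D5:**
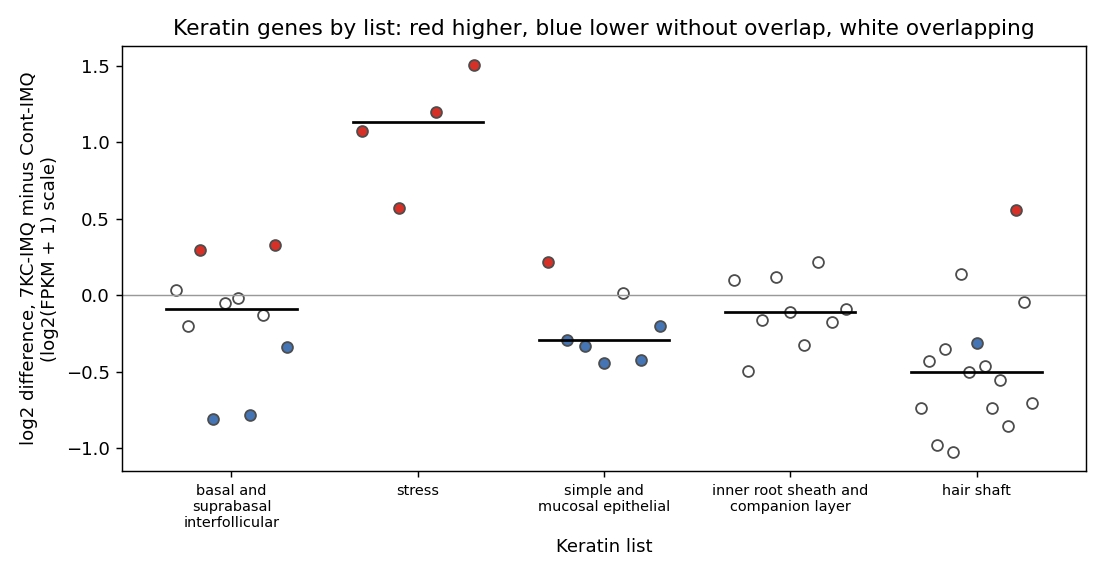
Log2 difference between the groups (7KC-IMQ minus Cont-IMQ, log2(FPKM + 1) scale) for each keratin gene tested, by family, with the family median as a line, red and blue where the groups did not overlap and white where they did. The 4 stress keratins lie above 0 with a median of 1.14, and the interfollicular keratins lie on both sides with a median of -0.091, whose sign turns without Cont-IMQ replicate 1.

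Genes that join keratins to cell contacts, or that control or accompany epidermal differentiation, gave values in both directions. Over all genes, 7.50% were higher and 5.47% lower at an unadjusted p under 0.05 in limma. Of 13 desmosome and linker genes, 2 were higher and 1 lower at that level, with a median of -0.023 that turned positive (0.061) without Cont-IMQ replicate 1. *Dsg3*, the desmoglein of the deep epidermis, had 56.1 and 56.4 FPKM in Cont-IMQ and 78.1 and 94.4 FPKM in 7KC-IMQ, and *Dsg1a*, a desmoglein of the upper layers, had 174 and 140.5 FPKM in Cont-IMQ and 111 and 112 FPKM in 7KC-IMQ. The values of *Dsg3* and *Dsg1a* thus went in opposite directions. *Dsg1b* did not follow *Dsg1a*. It had 38.4 and 30.1 FPKM in Cont-IMQ and 32.1 and 49.2 FPKM in 7KC-IMQ, and its ranges overlapped. Of 21 epidermal transcription factors, 0 had an unadjusted p under 0.05, and the median was 0.015, or -0.066 after rescaling to the same sum and -0.063 without 7KC-IMQ replicate 2. Of 13 spinous and granular layer products tested, 1 was higher and 2 were lower at that level, with a median of -0.014, or 0.20 without Cont-IMQ replicate 1 and -0.17 without Cont-IMQ replicate 2. *Ivl*, the cornified envelope precursor involucrin, had 302 and 353 FPKM in Cont-IMQ and 215 and 233 FPKM in 7KC-IMQ. *Tgm1*, the transglutaminase that crosslinks the envelope, had 94.0 and 91.5 FPKM in Cont-IMQ and 119 and 159 FPKM in 7KC-IMQ. None of the genes on these lists passed the adjusted threshold.

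Markers of other skin cells were read for the same libraries. Median differences were 0.22 for fibroblasts (6 genes), -0.27 for skeletal muscle (6 genes), 0.28 for adipocytes (6 genes), -0.12 for leukocytes (6 genes) and -0.075 for melanocytes (5 genes). Single libraries set the sign of several of these. The fibroblast median was -0.12 without Cont-IMQ replicate 2, the adipocyte median -0.066 without Cont-IMQ replicate 1, and the melanocyte median -0.85 and 0.69 without Cont-IMQ replicates 1 and 2. The muscle median ranged from -0.41 without 7KC-IMQ replicate 2 to -0.13 without 7KC-IMQ replicate 1, and its genes differed among themselves, from -0.76 for *Myh1* to 2.07 for *Myh4*. The endothelial markers were lower without overlap in 4 of 5 genes, against 22.9% of all genes, with a median of -0.40 and sums of 50.0 and 54.9 FPKM in Cont-IMQ and 42.2 and 40.1 FPKM in 7KC-IMQ. The part of these cells in the keratin values was not tested.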

How the data were processed

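Total RNA of dorsal skin was sequenced after preparation with a stranded mRNA kit. The authors mapped 75-base reads to mm10 and deposited FPKM values, 1 file per library. The submitters' processing notes list TopHat2 2.1.1, Bowtie2 2.2.8, SAMtools 0.1.18 and Cuffdiff 2.2.1, and the study's methods name Cufflinks for FPKM. How reads that fit several genes were counted is not given in the sources used here. Read counts are not used here, and depth was estimated as the number of reads that brings low FPKM values of single-transcript genes closest to whole reads (69.5% to 73.5% within 0.1 read, against a median of 14.5% to 15.7% over other depths). Intervals and floors from it cover counting error only.

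Groups were taken from the labels. The FPKM values were compared without further scaling as log2(FPKM + 1), which understates the change of low genes, using lmFit and eBayes with a variance trend in limma 3.58.1 (R 4.3.3). Genes with a mean of at least 0.1 FPKM were tested, with Benjamini-Hochberg adjustment. The fit was tested on simulated data. Alternatives were a pseudocount of 0.1, other filters, 4 other scalings, a fit with no trend, a block for the replicate number and leaving out each library.

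The keratins and the 18 other lists were chosen with earlier results of these data known. Named genes were the 10 keratins, at most 3 genes per list with the largest difference without overlap plus the highest and lowest of the list, and the 5 nearest in pattern to *Krt14* and *Krt10*. *Sox9*, *Lhx2*, *Lgr6* and *Dsg1b* were added to show list members that differed from those named.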

Additional observations from a re-analysis of the deposited data

How the results depend on the processing

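No keratin passed an adjusted p of 0.05 under any alternative (129 values of a keratin under an alternative, lowest adjusted p 0.316), and 120 of these kept the direction. *Krt14*, *Krt15*, *Krt77*, *Krt79* and *Krt80* kept theirs under each alternative run. With 1 library left out, the log2 difference ranged from -0.15 to 0.12 for *Krt5*, -0.64 to 0.24 for *Krt10*, -0.28 to 0.18 for *Krt2* and -0.49 to 0.23 for *Krt78*, and changed sign without Cont-IMQ replicate 1. That of *Krt1* ranged from -0.40 to 0.47 and changed sign with rescaling to the same sum (-0.047), the same without follicle and muscle genes (-0.050), quantile normalization (-0.11), without Cont-IMQ replicate 2 (-0.40) and without 7KC-IMQ replicate 2 (-0.093). The difference in the basal sum was 133 FPKM after quantile normalization. With a minimum of 100 FPKM, 2 of the 5 nearest genes of *Krt14* and 1 of those of *Krt10* were kept, since fewer genes are eligible. The cause of the other changes was not tested.

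Over all genes, those past the adjusted threshold numbered 2 with a pseudocount of 0.1, 71 without the filter, and 1 to 9 with 1 library left out (9 without Cont-IMQ replicate 1, 5 without Cont-IMQ replicate 2). Those with an unadjusted p under 0.05 numbered 615 to 2331 with 1 library left out (615 without 7KC-IMQ replicate 2, 1137 without 7KC-IMQ replicate 1), where a group of 1 library is assumed to vary like the other. With the replicate number as a block there were 1 gene past the adjusted threshold, 1754 at an unadjusted p under 0.05 and 4 keratins at the latter level, with *Krt79* added. That number was 2 without the filter, where *Krt77* was above 0.05 (unadjusted limma p 0.110). It was 3, namely *Krt15*, *Krt77* and *Krt80*, under the other alternatives that kept all 4 libraries. With 1 library left out, the log2 difference lay between -1.15 and -0.42 for *Krt77* and between -0.40 and -0.28 for *Krt80*. The labels do not tie the numbers to shared mice or days, and the deviations of same-numbered libraries had a correlation of 0.065. Depth limits only *Krt2* among the keratins.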
